A study of Rattus norvegicus with 2 samples.

Results

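The miRNAs rno-miR-15b, rno-miR-16, rno-miR-195 and rno-miR-497, called miR-15b and so on from here, were compared between an injured rat carotid artery, collected 10 days after it was ballooned, and an uninjured one. They were taken by name from the array, where they made up 4 of 350 rat miRNA features. In this model a balloon catheter is drawn through the vessel, which removes endothelial cells and stretches the media, and smooth muscle cells then divide and build a neointima. Both arteries came from male Sprague-Dawley rats of about 250 g, with no transgene or drug named in the labels. Each group held 1 array, a 1-colour array hybridised with Cy3-labelled total RNA, so the values have no replicate error and describe these 2 arrays only. The sources used here do not say how many rats went into each RNA sample.

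A miRNA finds its targets mainly through its seed, bases 2 to 8 from its 5′ end, so miRNAs that share a seed can repress many of the same mRNAs. The miR-15/16 family is known for repressing cyclins D and E, the kinase CDK6 and the survival factor BCL2, and it slows entry into S phase in many cell types. miR-15b and miR-16 are made from 1 cluster. In the RefSeq annotation of the rat genome (build GRCr8) their genes lie inside Smc4, which encodes a condensin subunit needed for chromosome compaction in mitosis, and the mature forms start 146 bases apart. miR-497 and miR-195 form the other cluster, with mature forms that start 337 bases apart. No annotated gene of that build spans this cluster, which lies between Bcl6b and C10h17orf49. miR-195 and miR-497 are known as brakes on proliferation, miR-195 in vascular smooth muscle among other cells.

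All 4 matched a mature RefSeq sequence, printed 5′ to 3′ with the seed in capitals to show what the clusters share and where they part. The positions are on GRCr8.
miR-15b, chr2:155555197-155555218, plus strand: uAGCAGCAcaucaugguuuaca
miR-16, chr2:155555343-155555364, plus strand: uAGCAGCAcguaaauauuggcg
miR-195, chr10:55450509-55450529, plus strand: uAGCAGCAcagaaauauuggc
miR-497, chr10:55450172-55450193, plus strand: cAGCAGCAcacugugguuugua

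The seed AGCAGCA was the same in all 4, so the members differ only at base 1 and after the seed. There the sequences paired across the clusters and not within them. miR-16 and miR-195 were identical at 19 of 21 positions counted from the 5′ end and shared the run aaauauuggc. miR-15b and miR-497 were identical at 16 of 22 positions and shared ugguuu after base 8. Within the clusters, miR-15b and miR-16 were identical at 14 of 22 positions and miR-195 and miR-497 at 12 of 21. The probe sequences were not used here, and whether the probes separate miR-16 from miR-195 was not tested.

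In the RefSeq table, 8 of 694 mature rat sequences held the letters AGCAGC from base 1 or base 2, the block that marks the wider group of miR-15 and miR-107, and all 8 had a feature on the array. The 4 relatives are shown with bases 2 to 8 in capitals, because they separate a full match to the seed from a partial one.
miR-322, chrX:137726198-137726219, minus strand: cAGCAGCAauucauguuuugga
miR-503, chrX:137725899-137725921, minus strand: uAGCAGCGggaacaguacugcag
miR-103, chr3:138963278-138963300, plus strand: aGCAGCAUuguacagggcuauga
miR-107, chr1:241750431-241750453, minus strand: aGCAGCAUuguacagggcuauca
Only miR-322 carried the members' whole seed. miR-503 parted from it at the last seed base, and miR-103 and miR-107 held the block 1 base further towards the 5′ end. The passenger arms of the members' hairpins had no feature on the array under their names.

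Of the 350 miRNAs, 158 were detected on both arrays, 166 on the uninjured one and 184 on the injured one, where detected means that the deposited flag was 1. Detected signals started at 3.43 (uninjured) and 1.36 (injured), and the highest undetected signals were 8.84 and 5.98. Ratios below are log2 of the injured over the uninjured intensity after each array was scaled to its 75th percentile over those 158 miRNAs. A difference of 2-fold served as a descriptive threshold, not as a test. By that threshold 20 of the 158 were higher (12.7%) and 6 were lower (3.8%) in the injured artery, and 103 had a positive ratio, with a median log2 ratio of 0.14. That balance depended on the scaling and ran to 7 higher and 23 lower with the control features aligned. The smooth muscle miRNAs miR-143 and miR-145 were detected on both arrays, while the hepatocyte miRNA miR-122 was detected on neither and only 1 of 5 epithelial miRNAs was detected.

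Of the miR-15b/16 cluster, miR-15b was over 2-fold higher in the injured artery and miR-16 was within 2-fold, and miR-195 and miR-497 both lay near 0. The signal of miR-15b was 126 in the uninjured artery and 298 in the injured one. It was 2.51-fold higher after injury, and it was the only one of the 4 past the 2-fold threshold, beside 12.7% of all measured miRNAs that were at least 2-fold higher. It fell short of 2-fold in 3 of the 10 settings, where its log2 ratio was 0.88 (medians matched), 0.83 (75th percentile over all features) and 0.74 (control features aligned). Only 11 of the 158 miRNAs had a higher ratio. miR-16, a miRNA abundant in most tissues and in blood cells, had signals of 1739 and 2372. Its ratio was 1.45-fold, a log2 ratio of 0.54, and 44 of the 158 miRNAs had a higher one. With the control features of the arrays aligned instead, the log2 ratio of miR-16 was -0.055, so its direction depended on the scaling.

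miR-195 had a signal of 954 without injury and 809 after it, a log2 ratio of -0.15. miR-497 had signals of 716 and 605, and its log2 ratio was also -0.15. Each was about 1.11-fold lower, well short of the 2-fold threshold that 3.8% of measured miRNAs passed downwards. Their ratios were below the median of all measured miRNAs, and 37 of the 158 had a lower ratio than miR-195. All 4 members lay far above the detection limit, from 14.3 times the highest undetected signal for miR-15b on the uninjured array to 397 times for miR-16 on the injured array. None of the 4 was therefore a dim feature, but the ratios rest on 1 array per group and varied with the scaling. With 16 added to each intensity, miR-15b was at a log2 ratio of 1.23.

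**Figure D1:**
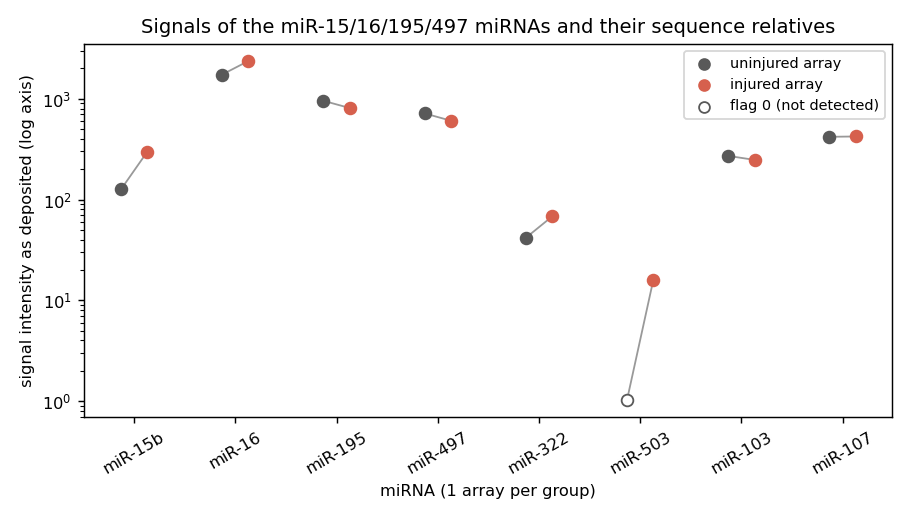
Signal intensity as deposited (log axis) of the 4 members and their 4 sequence relatives, with 1 grey point (uninjured) and 1 red point (injured) per miRNA and an open point where the flag was 0. miR-15b moved from 126 to 298 and miR-16 from 1739 to 2372, whereas miR-195 and miR-497 were lower on the injured array; heights of different miRNAs also depend on the probe and are not compared.

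**Figure D2:**
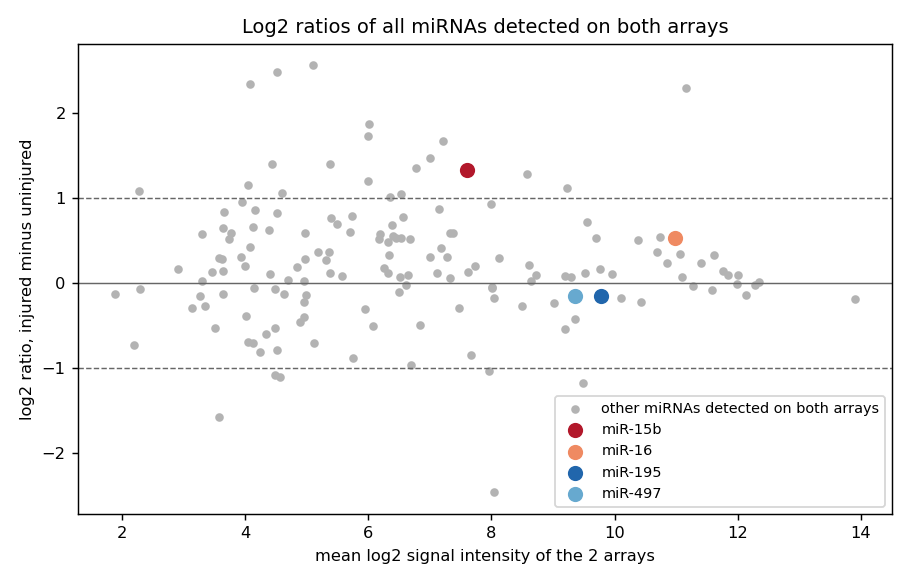
Log2 ratio, injured minus uninjured, against the mean log2 signal of the 2 arrays for the 158 miRNAs detected on both, with the 4 members coloured and dashed lines at 2-fold. miR-15b lies above the upper dashed line at 1.33, miR-16 lies at 0.54, and miR-195 and miR-497 lie together at -0.15.

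The comparison of the clusters does not depend on a factor that applies to a whole array, because such a factor cancels between them. The mean log2 ratio was 0.93 for miR-15b and miR-16 and -0.15 for miR-195 and miR-497. The difference of 1.08 corresponds to a 2.12-fold shift of the first cluster against the other. It came to a larger extent from miR-15b, whose log2 ratio exceeded that of miR-195 by 1.48, than from miR-16, which exceeded miR-195 by 0.69. Quantile normalization, which uses only the rank of each signal, gave 0.82 for the difference, which is under 2-fold.

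The members of the miR-15b/16 cluster differed from each other by more than those of the other cluster. miR-15b exceeded miR-16 by 0.79 on the log2 scale, which was larger than the gap of 0.69 between miR-16 and miR-195. miR-195 and miR-497 differed by 0.0032, and by 0.27 in the other direction under quantile normalization (-0.27). As a yardstick, 26 pairs of miRNAs that lie in 1 cluster or transcript were listed, and 18 pairs had both members detected on both arrays. Some miRNAs stand in more than 1 pair, and some are made from further loci, so the pairs are not independent. Over the 16 other pairs the absolute difference had a median of 0.41 and ran from 0.026 to 1.36. The difference between miR-15b and miR-16 was exceeded by 2 of them, miR-181c with miR-181d (0.995) and the red-cell pair miR-144 with miR-451 (1.36). None of the listed pairs was as close as miR-195 with miR-497. The list did not hold every pair of each cluster. Left out were, for example, miR-23a (log2 ratio 0.089) with miR-24 (0.092), which were as close, and miR-17-5p (2.34) with miR-92a (1.20), which lay further apart than miR-15b and miR-16. The gap within the miR-15b/16 pair was thus near the upper end of the 18 listed pairs detected on both arrays. That place depends on which pairs were listed, and its place among all cluster mates was not tested. The 16 other pairs were not compared under the other settings.

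**Figure D3:**
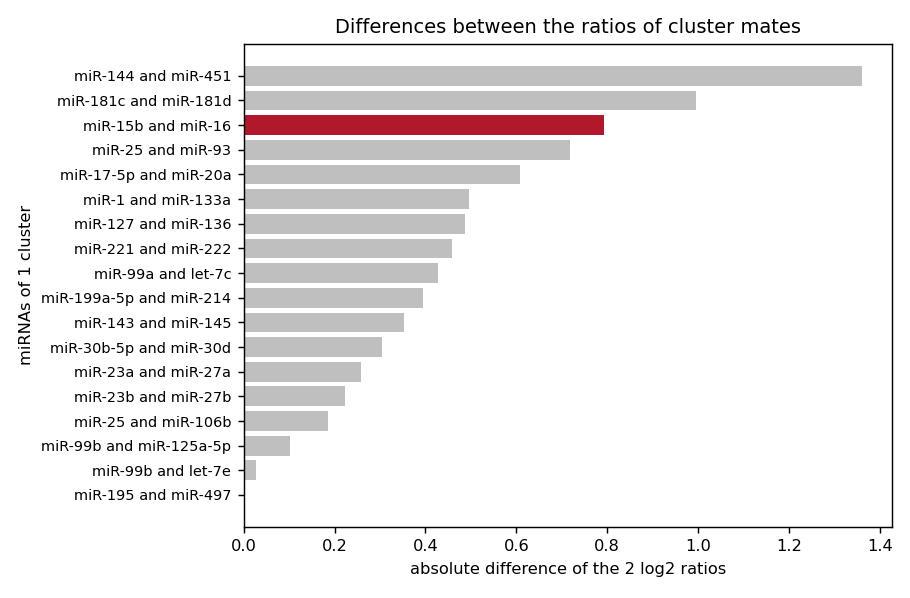
Absolute difference of the log2 ratios of the miRNAs in each of the 18 listed cluster pairs detected on both arrays, in order of size. The miR-195 and miR-497 bar, at 0.0032, is too short to see at the bottom, and the miR-15b and miR-16 bar reaches 0.79, the third from the top.

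The gaps between ratios can be set beside the likeness of sequence. The pair with the most similar sequences, miR-16 and miR-195, differed by 0.69, the next smallest of the 6 gaps after that of miR-195 and miR-497, and close to that of miR-16 and miR-497 (0.69). miR-15b and miR-497, the next most similar in sequence, differed by 1.48, as did miR-15b and miR-195. The closest ratios belonged to miR-195 and miR-497, which share a cluster and, after base 8, only 5 of 13 positions. These are 6 pairs of 4 miRNAs on 2 arrays and are given as a description.

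Among the sequence relatives, the X-linked pair was higher after injury and the pair of miR-103 and miR-107 was near 0. miR-322, which holds the full seed, had signals of 41.7 and 67.9 and a log2 ratio of 0.79. miR-503, from the same cluster and known to target cyclin D1, was detected only on the injured array, with a signal of 15.9 there against an undetected 1.02. It was at least 4.93-fold higher when set against the lowest detected signal of the uninjured array, and at least 1.91-fold when set against the highest undetected signal. miR-103 and miR-107, which lie in introns of pantothenate kinase genes and are linked to insulin and lipid metabolism, had log2 ratios of -0.04 and 0.10. With the control features aligned, miR-322 was at 0.20, miR-103 at -0.63 and miR-107 at -0.49.

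Of the 8 miRNAs of the group, 7 were detected on both arrays, 1 of those was at least 2-fold higher and none was lower by that much, beside 12.7% and 3.8% of all measured miRNAs, so the share called was near the background. Their log2 ratios ran from -0.15 to 1.33, with a median of 0.10 beside 0.14 for all 158. With the control features aligned both medians were negative, at -0.49 and -0.45, and none of the group was 2-fold higher. The 7 went both ways, with miR-15b, miR-322, miR-16 and miR-107 above 0 and miR-195, miR-497 and miR-103 below it, and miR-503, which has a bound only, is not among them. The 5 miRNAs with the full seed ran from -0.15 to 1.33, so they did not share 1 ratio on these arrays.

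Which miRNAs looked most like each member was judged by the distance between their pairs of scaled log2 signals on the 2 arrays. Closest to miR-15b were miR-223, which marks myeloid cells, at a distance of 0.59, and miR-324-3p at 0.61. Closest to miR-16 were miR-27a (0.17) and let-7i (0.28). miR-195 had miR-140 (0.23) and let-7d (0.30) nearest to it, and miR-497 had miR-99a and let-7e, both at 0.19. Likeness over 2 arrays rests largely on brightness, which depends on the probe, so these names describe the deposited signals only.

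The direction of miR-15b, miR-195 and miR-497 was the same under all 10 ways of processing that were run, while the size was not. The log2 ratio of miR-15b ran from 0.74 with the control features aligned to 1.33, and it was under 2-fold in 3 of them. miR-195 ran from -0.74 to -0.15 and miR-497 from -0.74 to -0.02. miR-16 was between -0.055 and 0.54. Most of these settings shift all ratios alike and so cannot change their order; over all of them between 9 and 12 miRNAs stood above miR-15b, and between 30 and 44 above miR-16. Between 114 and 124 stood above miR-195, and between 81 and 125 above miR-497, where the 81 came from quantile normalization. The 6 control features detected on both arrays were all brighter on the injured array before scaling, with a median log2 ratio of 0.50 against 0.05 for the miRNAs, and their part in the ratios was not tested.

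**Figure D4:**
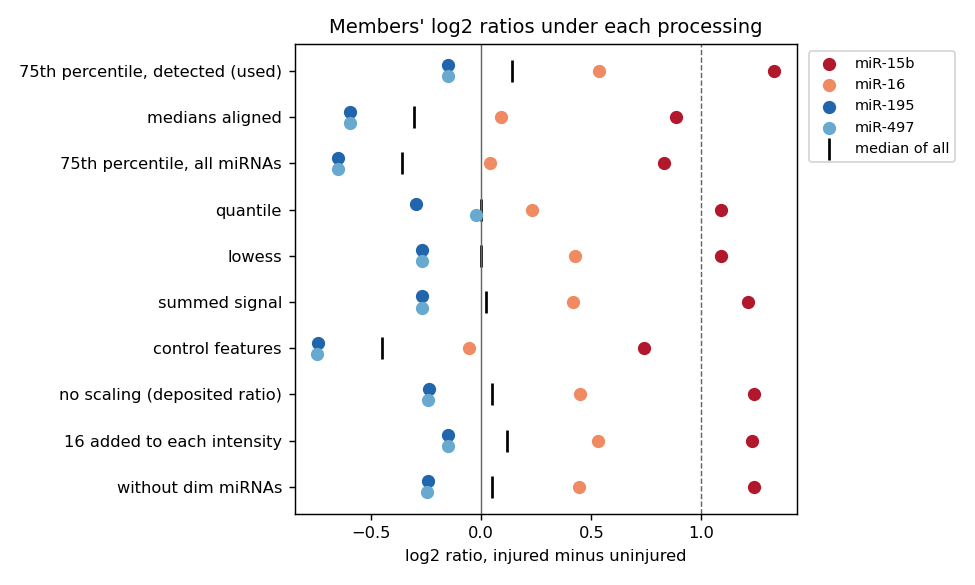
Log2 ratios of the 4 members, with miR-195 and miR-497 drawn slightly above and below each line, under the 10 ways of processing, beside the median of all miRNAs (black bar); the dashed line marks 2-fold. The points of miR-15b and miR-16 lie to the right of those of miR-195 and miR-497 on every line, and miR-16 runs from -0.055 to 0.54.

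Other miRNAs that repress cyclins or their kinases gave few large ratios where both arrays detected them. Each detected on 1 array, miR-34b and miR-124 had bounds past 2-fold against the highest undetected signal. The list held 19 miRNAs of the let-7, miR-26, miR-34 and miR-449 families, miR-124 and the sequence relatives above, and it was drawn up with earlier results of these data known. Of the 14 detected on both arrays none was 2-fold higher or lower, beside 12.7% and 3.8% of all measured miRNAs, and the median log2 ratio was 0.09 beside 0.14 for all measured miRNAs. No scaling brought any of the 14 past 2-fold, although their median was -0.51 with the control features aligned. let-7a, of a family that represses cyclin D and the kinases CDK4 and CDK6, had signals of 4207 and 3939. miR-26b had the lowest log2 ratio of the 14, at -0.22. miR-34a, a target of p53, had signals of 134 and 191 and a log2 ratio of 0.60. Its relatives miR-34b and miR-34c were detected only on the injured array, at 20.9 and 8.70. Set against the highest undetected signal of the uninjured array, they were at least 2.51-fold and 1.05-fold higher. The neuronal miR-124 was detected only on the uninjured array, at 16.2. Set against the highest undetected signal of the injured array, it was at least 2.56-fold lower.

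miRNAs of dividing cells, many of which repress inhibitors of the cell cycle, were higher together. This list too was drawn up with earlier results of these data known, so its counts are a description only. Of 13 listed, 10 were detected on both arrays, miR-18a and miR-19a only on the injured one and miR-20b-5p on neither. All 10 had positive ratios, beside 65.2% of all measured miRNAs, and 8 were at least 2-fold higher, beside 12.7%. Their median log2 ratio was 1.38. All 10 stayed positive with the control features aligned, where 3 were at least 2-fold higher, beside 7 of all 158, and the median was 0.79. miR-20a, of the miR-17-92 cluster, had signals of 35.9 and 112 and a log2 ratio of 1.73. miR-221, which represses the CDK inhibitor p27, went from 78.9 to 206, a log2 ratio of 1.47. The log2 ratio of miR-15b, 1.33, lay close to that of miR-19b at 1.35, and those of miR-16, miR-195 and miR-497 lay below all 10, of which the lowest was miR-25 at 0.69. Under lowess centring miR-16, at 0.42, stood above miR-25, at 0.26.

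**Figure D5:**
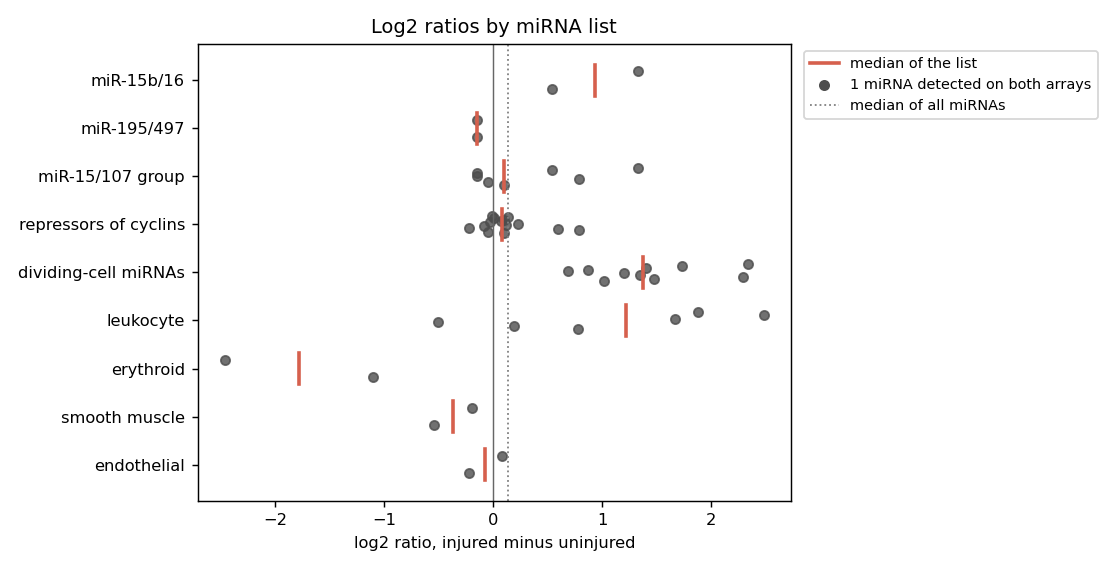
Log2 ratios of the miRNAs of each list that were detected on both arrays (points), with the list's median (red bar) and the median of all 158 miRNAs (dotted line, 0.14). The cyclin and dividing-cell lists were drawn up with earlier results of these data known. The dividing-cell list lies wholly above 0.69 or at it. The repressors of cyclins have a median of 0.09 and run from -0.22 to 0.79, a range that holds miR-16, miR-195 and miR-497. The medians of the members' clusters are 0.93 and -0.15.

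Marker miRNAs of blood, leukocytes, striated muscle and nerve also differed between the arrays, and a tissue array cannot tell fewer cells of a type from less RNA per cell. All 6 leukocyte miRNAs were detected on both arrays, with a median log2 ratio of 1.22 and a summed signal of 316 without injury and 636 after it. Of the 6, 3 were at least 2-fold higher, beside 12.7% of all measured miRNAs. miR-223 went from 86.2 to 259, while miR-342-3p was at 0.19 on the log2 scale and miR-150, of lymphocytes, went from 82.4 to 54.7, a log2 ratio of -0.50. Both erythroid miRNAs, miR-451 and miR-144, were at least 2-fold lower, beside 3.8% of all measured miRNAs, with log2 ratios of -2.47 and -1.11 (miR-144 was under 2-fold with 16 added to each intensity) and a summed signal of 677 and 125. miR-16, which red cells also carry, was at 0.54 on the log2 scale and at -0.055 with the control features aligned. Of 6 striated muscle miRNAs 4 were detected on both arrays, with a median log2 ratio of -1.06 and a summed signal over the list of 432 without injury and 200.4 after it. The 3 miRNAs miR-1, miR-133a and miR-133b were at least 2-fold lower, beside 3.8% of all measured miRNAs, and miR-206 and miR-208 were detected on neither array. Of 9 nerve miRNAs 6 were detected only on the uninjured array, 1 only on the injured array and 2 on both, and the summed signal was 446 and 229. Of all 350 miRNAs, 166 were detected on the uninjured array, 184 on the injured one and 158 on both. Among the 6, miR-129* (5.77) and miR-9 (7.43) lay under the highest undetected uninjured signal, 8.84. The others, miR-9* (12.9), miR-124 (16.2), miR-138 (26.6) and miR-137, lay above it. miR-137, abundant in neurons, had a signal of 55.5 without injury and was listed at an undetected 1 after it. The smooth muscle miRNAs miR-143 and miR-145 had log2 ratios of -0.19 and -0.55, and 2 arms of 1 endothelial hairpin, miR-126 and miR-126*, had 0.08 and -0.22. Those of miR-195 and miR-497, at -0.15, lay within the range of these 4. Which cells carried the 4 members, and the part of leukocytes, red cells, striated muscle and nerve in their ratios, was not tested.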

How the data were processed

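Array files held 1 signal intensity and 1 flag for 350 miRNA and 22 control features, as the authors deposited them. RNA was extracted with Trizol and labelled with Cy3, per the labels' protocols. The scanner software, background subtraction and earlier normalization are not stated in any source at hand. The flag (0 or 1) has no definition in those files and was taken to mark detection, since it is 0 on the negative control features. The authors' deposited table of linear ratios equalled injured over uninjured intensity for 349 of 349 shared names, within a relative tolerance of 0.0001, and served as an alternative without scaling.

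After taking log2, the 75th percentile of each array, over the 158 miRNAs detected on both (401 uninjured, 377 injured), was subtracted, which added 0.09 to every log2 ratio. For a miRNA detected on 1 array, a bound was computed against the dim array's lowest detected or highest undetected signal. Alternatives were other scalings (medians, 75th percentile of all miRNAs, quantile, lowess with a span of 0.4, summed signal, control features), 16 added to each intensity, leaving out dim miRNAs, and a 1.5-fold threshold. Python 3.11.15, numpy 2.4.6, pandas 2.3.3 and statsmodels 0.14.6 were used, and the computation was tested on simulated data without noise. There the cluster difference was checked only for settings that shift all ratios alike, which cannot alter it. It was not checked for quantile, lowess, 16 added or leaving out dim miRNAs.

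With 1 array per group there is no test and no p-value; the number of arrays limits the precision. Named miRNAs were the 4 members, their sequence relatives, the 2 nearest in signal to each member, and members of the lists. Members and lists were chosen with earlier results of these data known.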

Additional observations from a re-analysis of the deposited data

Results flagged for a closer look

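The control features, which take no part in the comparison of the miRNAs, gave a signal that differed between the arrays. The 6 detected on both were all brighter on the injured array, with a median log2 ratio of 0.50 before scaling and a range of 0.31 to 0.96. The difference was not tested, and it is the scaling under which miR-16 had a log2 ratio of -0.055.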

How the results depend on the processing

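No alternative measures replicate error, and no paired analysis was possible because each group holds 1 array. miR-15b was under 2-fold when array medians were matched (0.88), under the 75th percentile of all features (0.83) and under control-feature alignment (0.74). There no miRNA of its sequence group was at least 2-fold higher (0 against 1). With the control features aligned, miR-16 was at -0.055, miR-195 at -0.74 and miR-497 at -0.74. These are uniform shifts, so the cluster difference of 1.08 could not move under them; it was 0.82 with quantile normalization, 1.02 with lowess and 1.03 with 16 added. A 1.5-fold threshold put the 0.79 between miR-15b and miR-16 past it and called 2 group miRNAs higher, miR-15b and miR-322. Over all miRNAs, 20 higher and 6 lower became 8 and 16 with medians matched, 7 and 20 under the 75th percentile of all features, 13 and 12 with quantile normalization, 7 and 23 with the control features, 13 and 2 with 16 added, and 40 and 16 at 1.5-fold. Of 110 values under alternatives, 86 stayed on their side of the threshold and moved by less than 1.5-fold, with the same sign, or held a count within 1.5 times; the sign was not required of the small difference of miR-195 and miR-497. That difference, 0.0032, turned to -0.27 with quantile normalization and -0.0020 with lowess. Some of the 86 could not have changed. A uniform shift leaves differences between miRNAs as they are, and the 1.5-fold threshold leaves the ratios themselves unaltered. The members' signals lay far above the highest undetected ones, but with 16 added miR-15b moved to 1.23. For miR-503 only a bound is given.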
